A study of Mus musculus with 9 samples.

Results

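A group of 8 genes of cholesterol synthesis and its regulator SREBP2 was followed in brown adipose tissue (BAT) of mice: Hmgcs1, Idi1, Fdps, Fdft1, Sqle, Lss, Cyp51 and Srebf2. They were taken by name as a pathway group, and all 8 were measured among the 16608 genes listed for all 9 libraries. Messenger RNA of BAT was sequenced from 3 groups with 3 libraries each. Wild-type mice at room temperature (WT RT) stayed at 23 °C, and wild-type mice in the cold (WT Cold) spent 8 h at 4 °C. Mice labelled as knockouts of the amino acid sensing kinase GCN2 (GCN2 KO Cold) spent the same 8 h at 4 °C. All mice were reared at 23 °C and housed alone for 5 days before the exposure. GCN2 KO mice at room temperature were not analysed here, so an effect of genotype without cold cannot be told apart from one in the cold. The knockout is whole-body and on a C57Bl/6J background, all mice were adult, and the study used males and females, and the labels give no sex for a library.

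Cells build cholesterol from acetyl-CoA. HMG-CoA synthase (Hmgcs1) acts early, isopentenyl diphosphate isomerase (Idi1) and farnesyl diphosphate synthase (Fdps) build the isoprenoid chain, and squalene synthase (Fdft1) commits it to sterols. Squalene epoxidase (Sqle), lanosterol synthase (Lss) and lanosterol demethylase (Cyp51) then form and process the first ring-bearing sterols. Srebf2 encodes SREBP2, a transcription factor held in the endoplasmic reticulum by SCAP and INSIG proteins when sterols are plentiful. When sterols fall it is carried to the Golgi, cut by the proteases encoded by Mbtps1 and Mbtps2, and enters the nucleus to switch on these genes. Its relative SREBP1, encoded by Srebf1, acts mostly on fatty acid synthesis.

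The stretches of 250 bases before the start of transcription are shown for 4 of the genes, because SREBP2 acts through such promoters together with factors bound at CCAAT and GC boxes. Sequences are from RefSeq on GRCm38.p6, in a promoter table in which 5 of the 8 genes were matched (Hmgcs1, Idi1, Cyp51, Lss and Srebf2), and each is written 5′ to 3′ on the strand of its gene. Capitals mark matches to a sterol response element (TCACNCCAC) or to a CCAAT box, on either strand. ATTGG in capitals is a CCAAT box on the opposite strand.
Hmgcs1, chr13:119690101-119690350, plus strand: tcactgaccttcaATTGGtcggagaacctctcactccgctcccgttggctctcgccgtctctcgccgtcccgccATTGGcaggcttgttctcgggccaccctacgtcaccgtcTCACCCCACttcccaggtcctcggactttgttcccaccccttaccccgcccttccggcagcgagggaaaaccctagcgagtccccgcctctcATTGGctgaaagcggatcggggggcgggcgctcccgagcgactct
Idi1, chr13:8885356-8885605, plus strand: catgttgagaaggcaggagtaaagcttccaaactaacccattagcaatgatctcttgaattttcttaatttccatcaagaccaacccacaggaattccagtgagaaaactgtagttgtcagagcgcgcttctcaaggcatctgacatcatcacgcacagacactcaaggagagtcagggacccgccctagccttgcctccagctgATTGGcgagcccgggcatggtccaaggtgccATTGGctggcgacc
Cyp51, chr5:4104698-4104947, minus strand: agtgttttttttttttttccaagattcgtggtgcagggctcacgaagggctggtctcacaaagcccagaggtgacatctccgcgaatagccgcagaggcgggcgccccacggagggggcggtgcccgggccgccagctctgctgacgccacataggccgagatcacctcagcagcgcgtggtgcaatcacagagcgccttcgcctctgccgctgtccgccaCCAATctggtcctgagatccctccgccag
Lss, chr10:76531355-76531604, plus strand: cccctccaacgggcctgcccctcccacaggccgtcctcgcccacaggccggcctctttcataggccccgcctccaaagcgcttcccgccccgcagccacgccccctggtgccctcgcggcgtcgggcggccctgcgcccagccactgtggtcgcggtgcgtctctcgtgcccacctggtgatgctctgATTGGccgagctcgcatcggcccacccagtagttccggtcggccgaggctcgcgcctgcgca
The sterol response element was matched in Hmgcs1 alone of the 5 genes, 137 bases before the start, and in 1.05% of all 32851 promoters of this length. A CCAAT box was matched in 5 of 5, against 33.8% of all promoters, and a GC box (GGGCGG, either strand, not capitalised) in 5 of 5, against 32.7%. Of 19 promoters of 16 cholesterol synthesis genes in the table, 15 held a CCAAT box and 10 held at least 2, against 10.1% of all promoters for at least 2. A match is a stretch of letters and was not tested as a binding site. The sterol response element was searched only as the pattern given above, so a promoter without a match is not shown to lack one.

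Libraries held from 27058799 to 30768064 reads on the listed genes. Letters A, B and C name the libraries of each group, sorted by library code, and the codes tie no library to a mouse. The deposited signal is a count scaled by a library size factor that was estimated separately in 3 tables, 1 for each pair of groups, and 100% of the values gave back whole reads. Levels across the 9 libraries are CPM, reads relative to the library total, adjusted by the TMM method (TMM-scaled CPM), a scale taken after plain CPM had been seen, so counts on plain CPM stand beside those that depend on it. Eif2ak4, which encodes GCN2, had 10.2, 11.6 and 12.9 TMM-scaled CPM in WT RT, 6.20, 8.19 and 8.43 in WT Cold, and 12.6, 13.7 and 12.8 in those labelled GCN2 KO Cold. It was not lower in the latter, and a gene total does not check a partial deletion, so that group is named as labelled throughout. Library C of each cold group stood apart, with Xist at 132 and 138 TMM-scaled CPM and Ddx3y at 7.10 and 11.3, while Xist was at most 46.1 and Ddx3y at least 82.9 in the other 7. No WT RT library had this pattern, so the cold groups and WT RT are not matched for it. Its part in the values of the 8 genes was not tested. Ucp1, the uncoupling protein of brown fat, was among the 10 brown adipocyte markers, whose summed level was 17911 to 33873 TMM-scaled CPM with none at 0. This sum was not a test of purity, and skeletal muscle markers summed to 445 to 4591 in the same libraries.

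Of the early enzymes, Hmgcs1 had 198, 268 and 246 TMM-scaled CPM in WT RT libraries A, B and C, 191, 189 and 158 in WT Cold and then 241, 235 and 205 in GCN2 KO Cold. On this scale all 3 WT Cold libraries lay below all 6 others. Idi1 had 19.8, 23.3 and 25.5 in WT RT, 13.4, 15.8 and 23.1 in WT Cold and then 29.8, 25.3 and 27.0 in GCN2 KO Cold. WT Cold library C reached the WT RT range, whereas the other two WT Cold libraries lay below it. Fdps had 40.2, 53.9 and 62.5 in WT RT, 22.4, 25.0 and 34.5 in WT Cold and then 41.7, 37.7 and 39.5 in GCN2 KO Cold, so that the WT Cold libraries were again the lowest 3.

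At the branch to sterols, Fdft1 had 113, 73.9 and 83.5 TMM-scaled CPM in WT RT, 32.6, 35.0 and 74.6 in WT Cold and then 59.5, 54.2 and 43.3 in GCN2 KO Cold. WT Cold library C stood well above the other two of its group and overlapped WT RT. Sqle had 21.2, 28.3 and 29.0 in WT RT, 23.9, 26.7 and 35.6 in WT Cold and then 60.3, 58.1 and 38.6 in GCN2 KO Cold. Its 3 GCN2 KO Cold libraries were the highest 3 of the 9, with library C of both cold groups close together. Lss had 38.0, 44.3 and 54.2 in WT RT, 25.1, 19.9 and 26.1 in WT Cold and then 34.9, 38.2 and 26.8 in GCN2 KO Cold. Cyp51 had 44.7, 50.2 and 53.3 in WT RT, 48.1, 50.4 and 61.0 in WT Cold and then 82.8, 84.4 and 63.6 in GCN2 KO Cold. On this scale it resembled Sqle in that GCN2 KO Cold held the highest 3 values and library C lay near WT Cold. On plain CPM Cyp51 overlapped between the cold groups, whereas Sqle did not.

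The regulator gene Srebf2 had 35.7, 40.1 and 42.6 TMM-scaled CPM in WT RT, 48.7, 49.1 and 44.0 in WT Cold and then 56.3, 48.9 and 43.9 in GCN2 KO Cold. Its values in both cold groups lay above WT RT on this scale and overlapped each other, while on plain CPM all 3 groups overlapped.

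**Figure D1:**
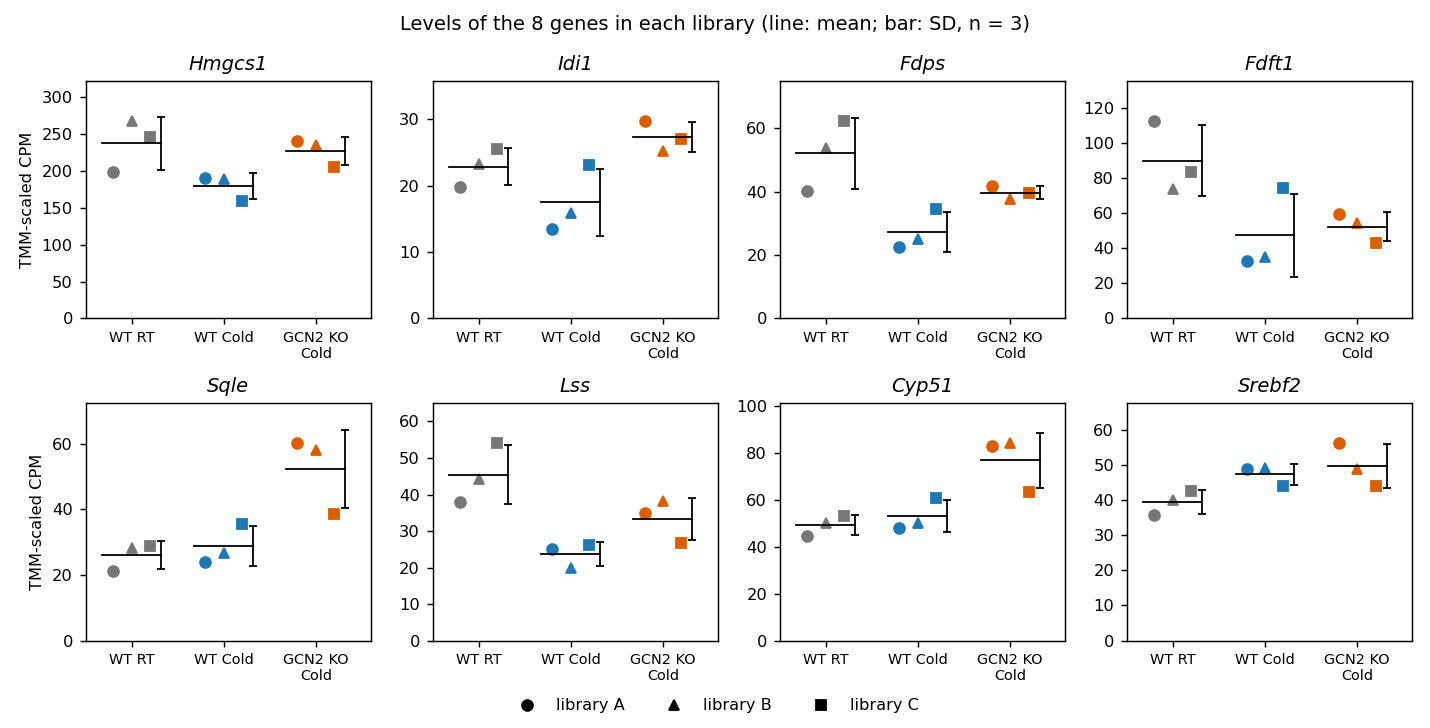
TMM-scaled CPM (vertical axis, from 0) of the 8 genes in the 3 libraries of each group, with the mean as a line and the SD as a bar (n = 3). Sqle and Cyp51 are highest in GCN2 KO Cold, Fdps and Lss are lowest in WT Cold, and library C of WT Cold (square) is the highest of its group for Fdft1, at 74.6.

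Per kilobase of exon, Hmgcs1 was the most abundant of the 8 in every group, at 51.7 ± 7.79 TMM-scaled CPM per kb in WT RT, 39.0 ± 3.93 for WT Cold mice and 49.4 ± 4.12 for GCN2 KO Cold mice (SD, n = 3). Lss was the lowest in every group, at 4.21 ± 0.758, 2.20 ± 0.306 and 3.09 ± 0.541. In WT RT the order was Hmgcs1, Fdft1, Fdps, Cyp51, Idi1, Srebf2, Sqle and Lss. Neighbours overlapped between Fdps and Cyp51 and from Idi1 down to Lss. In GCN2 KO Cold, Cyp51 was second at 17.4 ± 2.63 and Sqle, next after Fdft1, at 9.44 ± 2.16, overlapping Fdft1 and Fdps. Exon lengths came from GENCODE M21 on GRCm38, whereas the reads were counted on GRCm39.

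The first comparison asked how 8 h of cold moved the pathway in WT mice. Of the 8 genes, 3 fell and none rose at an adjusted p under 0.05. The test was limma on the log2 of the normalized count plus 1, with p adjusted by Benjamini-Hochberg over all 16679 genes. Among all genes, 13.6% rose and 14.1% fell. Lss fell by 0.91 on the log2 scale (SE 0.15, adjusted p = 0.00489), Fdps fell by 0.91 (SE 0.20, adjusted p = 0.0134) and Fdft1 fell by 0.99 (SE 0.31, adjusted p = 0.0485). The Fdft1 call was lost with DESeq2 (adjusted p = 0.0971) and with edgeR (adjusted p = 0.0721), whereas DESeq2 called Hmgcs1 as lower (adjusted p = 0.0312). With limma the Fdft1 call was also lost without the mean-variance trend and without any 1 library other than WT Cold C. Of the 5 others, Hmgcs1 was at -0.38 (limma adjusted p = 0.0596), Idi1 at -0.40 (0.175), Cyp51 at 0.12 (0.443), Sqle at 0.15 (0.554) and Srebf2 at 0.28 (0.0554). No member exceeded a log2 fold change of 1 as well, the threshold of the study, which 8.14% of all genes did.

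On the deposited scale the groups did not overlap for Hmgcs1, Fdps and Lss, all lower in WT Cold, and for Srebf2, higher in WT Cold. Among all genes this held for 22.8% lower and 22.8% higher, and on plain CPM it held for 4 members lower and none higher. The median log2 fold change of the 8 was -0.39, against 0.00 over all genes. The count moved with single libraries. Without WT RT B or without WT Cold B only Lss passed, with Fdps at -0.87 and -0.86 (limma adjusted p = 0.0502 and 0.0515) and Fdft1 at -1.12 and -0.82, while calls over all genes dropped from 4624 to 3067 and 2907. Without WT Cold C 5 members passed, against 5679 of all genes, with Idi1 lower and Srebf2 higher added.

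**Figure D2:**
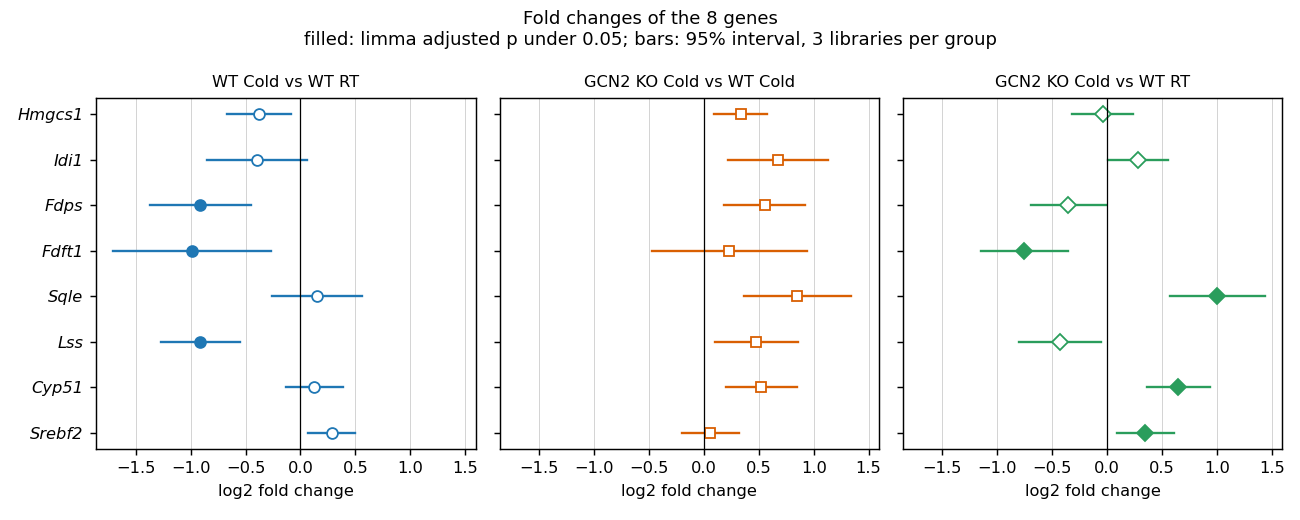
Log2 fold change (horizontal axis) of the 8 genes in the 3 comparisons, with 95% intervals from limma (3 libraries per group) and filled symbols for an adjusted p under 0.05. In WT Cold vs WT RT the filled symbols are Fdps, Fdft1 and Lss, in GCN2 KO Cold vs WT Cold there is none, and in GCN2 KO Cold vs WT RT they are Fdft1, Sqle, Cyp51 and Srebf2.

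Of 19 genes on the way from acetyl-CoA to cholesterol, 7 members included, 2 rose and 8 fell, against the 13.6% and 14.1% of all genes given above, and their median was -0.38. Without WT RT A 1 rose and 8 fell, without WT RT B or without WT Cold B 1 rose and 4 fell, and without WT RT C 1 rose and 5 fell. Hsd17b7 rose by 1.02 and the methyl sterol oxidase Msmo1 by 0.54. Nsdhl, a sterol dehydrogenase, fell by 1.65, the thiolase Acat2 fell by 1.57, mevalonate kinase (Mvk) fell by 0.94, Sc5d fell by 0.74 and Dhcr7 fell by 0.65. Values that did not pass were -0.22 for Pmvk, -0.33 for Mvd, -0.26 for Tm7sf2, 0.18 for Lbr and 0.04 for Ebp.

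Of 12 genes that control SREBP, 1 rose and 4 fell, against 13.6% and 14.1% of all genes. Without WT RT A, B or C or WT Cold A none rose and 3 fell, and without WT Cold C 2 rose and 4 fell. Insig2, a retention protein, rose by 0.50, whereas its relative Insig1 fell by 1.17, Srebf1 fell by 1.23, Erlin1 fell by 0.35 and Erlin2 fell by 0.59. Scap was at -0.13, Mbtps1 at -0.22, Mbtps2 at 0.19, Rnf139 at 0.21, Rnf145 at -0.07 and Ubxn8 at 0.24, none of which passed. Among 8 genes listed as other SREBP2 targets, Insig1, Mmab (fell by 0.61) and Elovl5 (fell by 0.81) were lower. Insig1 is counted in both lists. Stard4 was at 0.18, Tmem97 at -0.07, Lpin1 at 0.24, Fads1 at -0.40 and Fads2 at 0.09.

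The fatty acid synthesis genes of SREBP1 fell in 13 of 13, with a median of -1.71, led by Acly at -3.72, Thrsp at -2.66 and Acss2 at -2.42. Cholesterol uptake and traffic genes passed in both directions (4 higher and 3 lower of 14), with Gramd1b at 1.77, Gramd1c at -1.31 and Npc2 at -0.81. Of 9 genes of the LXR and efflux list, 2 rose and 1 fell. The largest changes were Mylip at 0.81, the exporter Abca1 at -0.67 and the receptor gene Nr1h3 at 0.51. Of 15 genes of the isoprenoid branch, 3 rose and 3 fell, with Trit1 at -1.04, Rabggtb at 0.97 and Pdss1 at 0.93. Beside the counts of each of these lists, 13.6% of all genes rose and 14.1% fell. None of 10 genes of sterol esters and oxysterols passed with limma, DESeq2 or edgeR, while 2 had an unadjusted p under 0.05, and 3 fell without WT Cold C and 1 with all 9 libraries in the fit.

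Markers of other cells moved as well. Of 10 macrophage and leukocyte markers 7 fell (median -1.14), with a summed level of 361 to 549 TMM-scaled CPM in WT RT and 177 to 266 in WT Cold. All 5 red blood cell markers rose, as did 4 of 10 endothelial markers and 3 of 18 skeletal muscle markers, the latter a share near that of all genes. Of 10 brown adipocyte markers 5 rose and 1 fell, and of 10 Schwann cell and nerve markers 2 rose and 1 fell. Their part in the values of the 8 genes was not tested, and in bulk tissue fewer cells of a type and less RNA per cell cannot be told apart.

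The second comparison asked what differed between the 2 genotype labels in the cold. All 8 genes had higher means in GCN2 KO Cold, as labelled, than in the wild type, and none passed with limma (adjusted p 0.142 to 0.850). With edgeR none passed either, DESeq2 called Sqle (adjusted p = 0.00389) and Cyp51 (adjusted p = 0.0349), and 6 of 8 had an unadjusted p under 0.05, as did 2500 of all 16312 genes. Few genes were called in all: 0.178% rose and 0.227% fell with limma, 0.257% also passed the fold threshold, and 1.45% rose with DESeq2. The log2 fold changes were 0.85 for Sqle (95% interval 0.37 to 1.34), 0.67 for Idi1 (0.22 to 1.13), 0.55 for Fdps (0.19 to 0.92), 0.52 for Cyp51 (0.20 to 0.85), 0.48 for Lss (0.10 to 0.85), 0.33 for Hmgcs1 (0.09 to 0.57), 0.23 for Fdft1 (-0.48 to 0.94) and 0.06 for Srebf2 (-0.20 to 0.32). Fdft1 ran from 0.016 without WT Cold A to 0.61 without WT Cold C.

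Of the 8 genes, 6 did not overlap on the deposited scale, all but Fdft1 and Srebf2. Among all genes 11.3% were higher and 10.7% lower without overlap. On plain CPM 3 of the 8 did not overlap, namely Fdps, Idi1 and Sqle. The median of the 8 was 0.50, against 0.00 over all genes, and 0.37 under plain CPM scaling, where Srebf2 turned to -0.06. Without library C of both cold groups, an alternative chosen after seeing the data, Sqle (1.22, adjusted p = 0.00892), Cyp51 (0.75, adjusted p = 0.0185) and Fdft1 (0.74, adjusted p = 0.0323) passed with limma, and of all genes 0.282% rose and 0.748% fell.

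In the wider pathway 18 of 19 genes had a higher mean in GCN2 KO Cold, with Lbr at -0.29 as the exception, and the median was 0.51. Acat2 rose by 0.64 (limma adjusted p = 0.0461), and none of the other 18 passed. The Acat2 call was lost with edgeR (adjusted p = 0.0514), in the plain CPM fit of this pair, without the mean-variance trend and without any 1 library. With all 9 libraries in a plain CPM fit 2 of the 19 rose, against 56 of all 16608 genes, and without library C of both cold groups 7 did, against the 0.282% of all genes given above. DESeq2 called 6 of the 19. Hsd17b7 was at 0.94 (limma adjusted p = 0.0725), Nsdhl at 0.64, Msmo1 at 0.60, Mvk at 0.60, Tm7sf2 at 0.51, Sc5d at 0.45 and Pmvk at 0.37. Dhcr7 and Ebp were at 0.26 and Mvd was at 0.19.

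None of the 12 SREBP control genes passed with limma, DESeq2 or edgeR, and 0 had an unadjusted p under 0.05. Their values ran from -0.30 for Srebf1 to 0.15 for Insig1, with a median of -0.05. None of the 8 other targets passed with any of the 3 tools, and 3 had an unadjusted p under 0.05. Tmem97 was at 0.42, Mmab at 0.35, Stard4 at 0.33, Fads2 at 0.26, Elovl5 at 0.21, Fads1 at 0.18 and Lpin1 at -0.28. Of 13 fatty acid synthesis genes Thrsp rose (0.79, limma adjusted p = 0.0439), a call that was lost without any 1 library, without the mean-variance trend and in the plain CPM fit of this pair, while 2 of the 13 rose with all 9 libraries in the fit. DESeq2 called 4 of the 13. Pnpla3 was at 0.90 and Me1 at 0.74, neither passing with limma. No gene passed with limma or edgeR in the lists of uptake and traffic, LXR and efflux, sterol esters and oxysterols, or the isoprenoid branch, in which 4, 2, 2 and 5 genes had an unadjusted p under 0.05, and DESeq2 called 1 higher in the first and 1 lower in the second.

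Of the marker lists, skeletal muscle had the largest median difference beside these values. All 18 were lower in GCN2 KO Cold (median -1.89), of which limma called 2, DESeq2 5 and edgeR 0, while 18 had an unadjusted p under 0.05. Their summed level was 445 to 1776 TMM-scaled CPM against 2900 to 4591 in WT Cold. All 10 brown adipocyte markers had higher means, with a summed level of 32825 to 33873 against 26066 to 27589. None passed with limma or edgeR, 5 had an unadjusted p under 0.05 and DESeq2 called 4 as higher. All 10 macrophage and leukocyte markers had lower means (median -0.56) and all 5 red blood cell markers higher means (median 0.64), none passing with the 3 tools, with 4 and 0 at an unadjusted p under 0.05. Of 9 Schwann cell and nerve markers measured, limma and edgeR called 1 as lower and DESeq2 2. Library C of GCN2 KO Cold had the lowest muscle level and the lowest Sqle, Cyp51, Lss, Hmgcs1, Fdft1 and Srebf2 of its group. Their part in the values of the 8 genes was not tested.

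**Figure D3:**
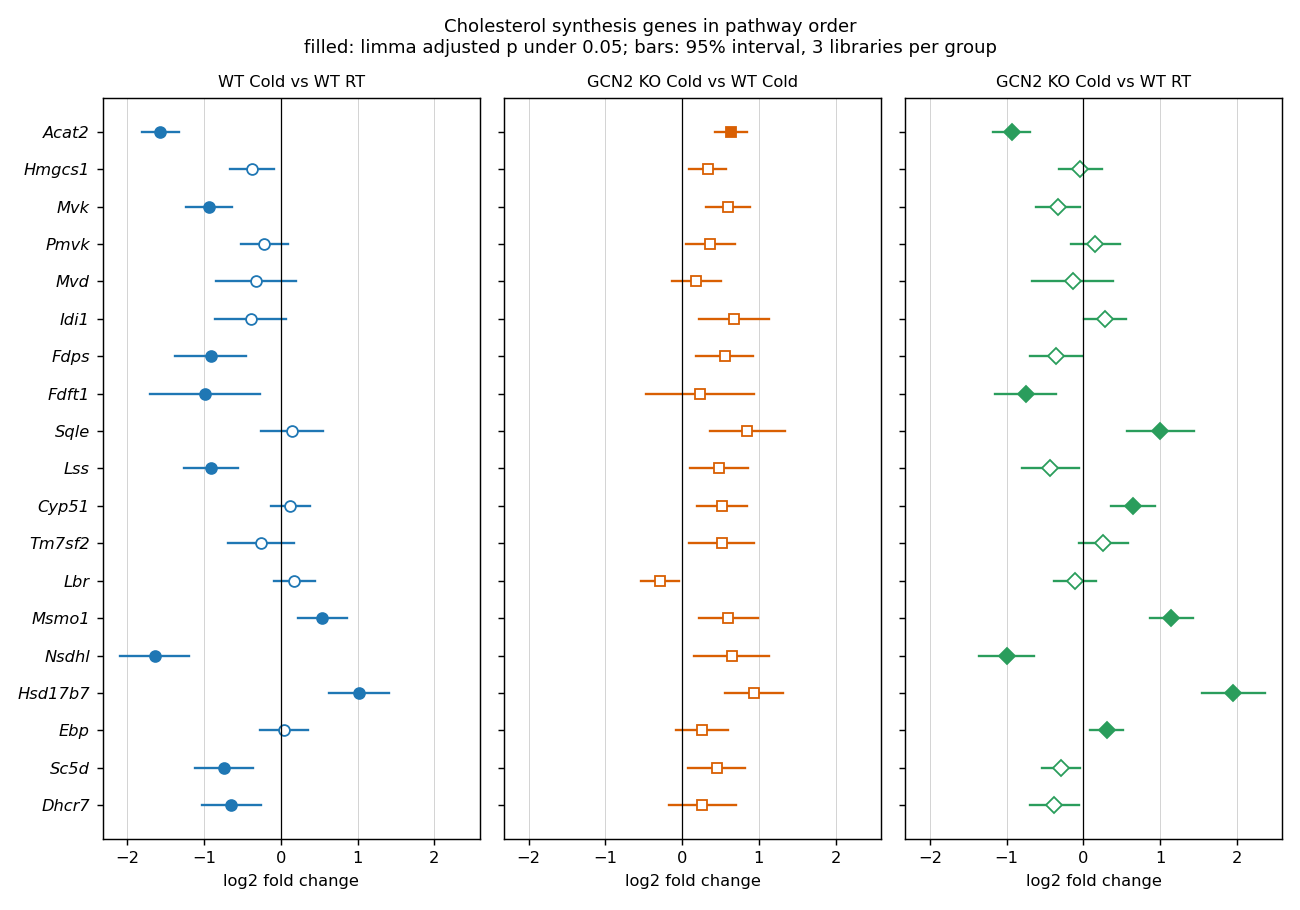
Log2 fold change (horizontal axis) of 19 cholesterol synthesis genes in pathway order starting at Acat2, with 95% intervals (3 libraries per group) and filled symbols for a limma adjusted p under 0.05. In GCN2 KO Cold vs WT Cold 18 of 19 lie above 0, while in WT Cold vs WT RT 2 rose and 8 fell.

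The third comparison set GCN2 KO Cold against WT RT, in which genotype label and temperature both differ. It shares its libraries with the other two comparisons and is no independent repeat of either. Sqle rose by 1.003 (SE 0.19, adjusted p = 0.00484), Cyp51 by 0.65 (SE 0.13, adjusted p = 0.00528) and Srebf2 by 0.35 (SE 0.11, adjusted p = 0.0467), while Fdft1 fell by 0.75 (SE 0.17, adjusted p = 0.0110). These adjusted p values are limma's over 16560 genes, of which 16.4% rose and 17.8% fell. Only Sqle passed the fold threshold as well, as did 10.6% of all genes. Lss was at -0.43 (limma adjusted p = 0.0748), Fdps at -0.36 (0.101), Idi1 at 0.28 (0.102) and Hmgcs1 at -0.04 (0.818). Leaving out each library, Fdps ran from -0.53 to -0.22, and it passed as lower without WT RT A (limma adjusted p = 0.0126).

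The Srebf2 call was lost with edgeR (adjusted p = 0.0560), under TMM scaling (limma adjusted p = 0.0599) and under plain CPM scaling, where it was at 0.14 (limma adjusted p = 0.346). It was also lost without the mean-variance trend and without any 1 library other than GCN2 KO Cold C, and in all under 12 of 19 alternatives. On the deposited scale 4 members lay above WT RT without overlap and Fdft1 below, against 23.7% and 25.5% of all genes. On TMM-scaled CPM 3 lay above, without Idi1, and Fdft1 below. On plain CPM 2 lay above and 3 below. Plain CPM moved the median of all genes to -0.15, and under it Fdps (-0.55) and Lss (-0.62) also passed as lower.

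Among all genes 16.4% rose and 17.8% fell on the deposited scale, while 1480 of 16560 rose and 4837 fell on plain CPM. These values stand beside the limma counts of each list below. In the wider pathway 5 of 19 genes rose and 3 fell, against 4 and 8 on plain CPM and 4 and 6 without WT RT A. Besides Sqle and Cyp51, Hsd17b7 rose by 1.96, Msmo1 by 1.15 and Ebp by 0.30, and besides Fdft1, Nsdhl fell by 1.002 and Acat2 fell by 0.93. Of the SREBP control genes 4 rose and 5 fell, and without WT RT A, B or C or GCN2 KO Cold B 2 rose. Insig2 rose by 0.40, Rnf139 and Ubxn8 by 0.33 each, and Srebf1 fell by 1.53, Insig1 fell by 1.02, Erlin2 fell by 0.50, Erlin1 fell by 0.41 and Mbtps1 fell by 0.34. Under plain CPM scaling none of the 12 rose and 7 fell. Among other targets Stard4 rose by 0.51 and Tmem97 by 0.35, while Insig1 and Elovl5 (fell by 0.60) were lower. On plain CPM none of these 8 rose and 4 fell, and 1 rose without any 1 library other than GCN2 KO Cold B. Fatty acid synthesis genes fell in 12 of 13. Of the uptake and traffic genes 5 rose and 4 fell, of the LXR and efflux genes 3 rose and 2 fell, of the isoprenoid branch 5 rose and 2 fell, and of 9 measured genes of sterol esters and oxysterols 1 rose and 1 fell. On plain CPM more genes of each of these lists were lower than higher, with 2 higher and 7 lower for uptake and traffic, 1 and 3 for LXR and efflux, 2 and 4 for the isoprenoid branch, and 1 and 2 for sterol esters and oxysterols. Without WT RT A or B or GCN2 KO Cold A 3 genes of the isoprenoid branch rose. For sterol esters and oxysterols 3 rose and none fell without GCN2 KO Cold A, 2 fell without WT RT A, and none fell without WT RT B, WT RT C or GCN2 KO Cold C. As for markers, limma called 16 of 18 skeletal muscle markers as lower (median -1.66), DESeq2 9 and edgeR 10. With limma 9 of 10 macrophage and leukocyte markers fell (median -1.54), all 5 red blood cell markers rose (median 2.31), 7 of 10 brown adipocyte markers rose, of 10 endothelial markers 4 rose and 2 fell, and of 9 Schwann cell and nerve markers 2 rose and 2 fell. Their part in the values of the 8 genes was not tested.

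**Figure D4:**
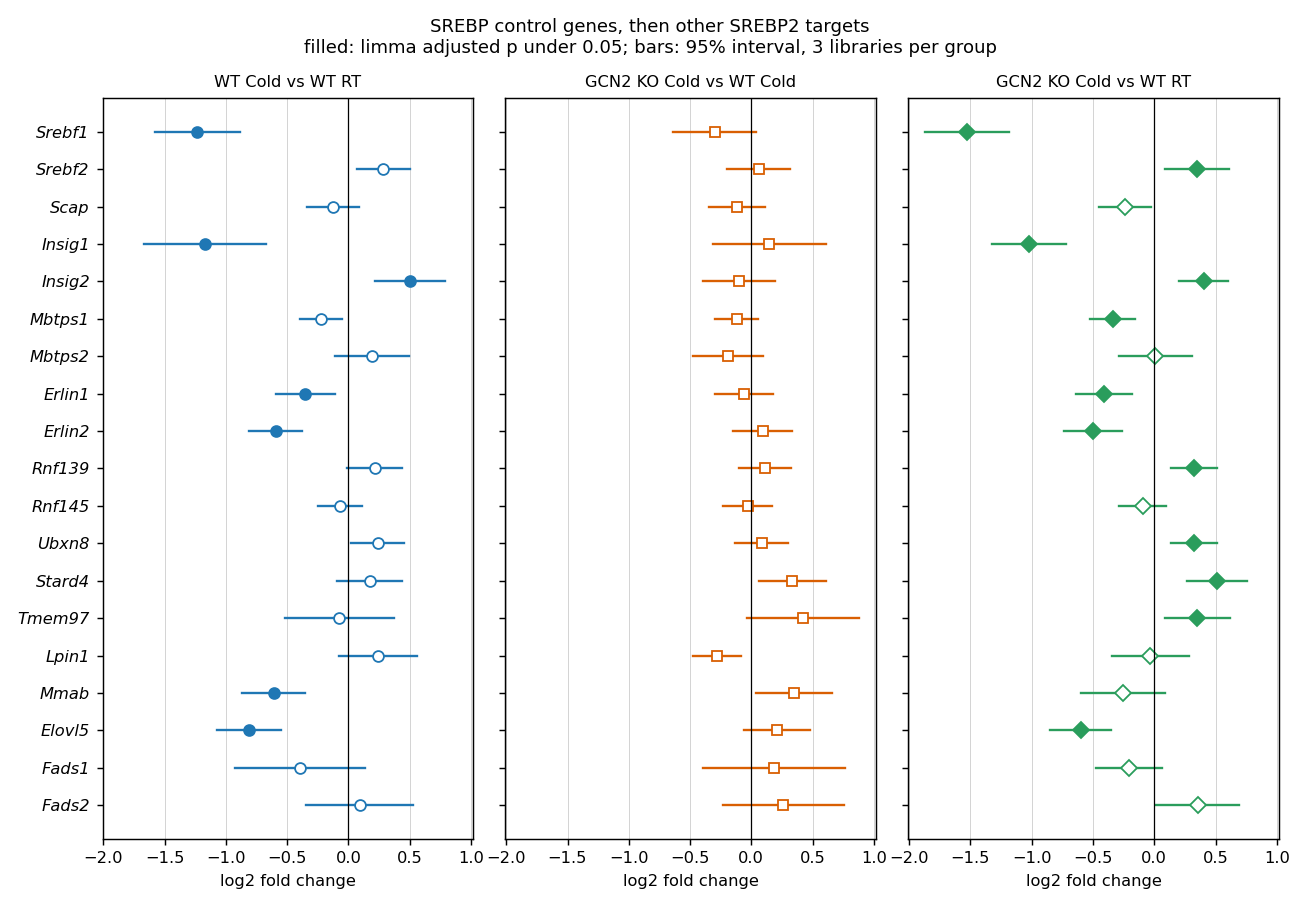
Log2 fold change (horizontal axis) of the SREBP control genes and, below them, the other SREBP2 targets, with 95% intervals (3 libraries per group) and filled symbols for a limma adjusted p under 0.05. Srebf1 and Insig1 are lower in both cold groups than in WT RT, and no gene passes in GCN2 KO Cold vs WT Cold.

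Over the 9 libraries the 8 genes did not vary as a single block. The highest Pearson correlation of log2(TMM-scaled CPM + 1) was between Sqle and Cyp51 (r = 0.996), and Fdps and Lss followed at 0.89, while Sqle and Lss were at 0.10 and Fdft1 and Srebf2 at -0.66. On plain CPM these were 0.995, 0.90, -0.01 and -0.62, and the largest shift of any pair between the scales was 0.39. With Sqle and Lss chosen as anchors after seeing these values, Msmo1 (r = 0.92), Stard4 (0.86) and Hsd17b7 (0.85) followed Sqle, and Nsdhl (0.95), Mvk (0.93), Acat2 (0.92) and Sc5d (0.91) followed Lss. These are descriptions over 9 libraries that share 3 conditions and their scaling. Among 10519 other genes with a mean of at least 5 CPM, those closest to the mean profile of the 8 on plain CPM were Mrap (r = 0.93), Commd3 (0.92), Syngr1 (0.91), Tbc1d7, Plin3, Tmem192 and Psmg4 (0.89 each), and Zswim7, H2-Q4 and Wdr83os (0.87 each).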

How the data were processed

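BAT messenger RNA of 9 mice was sequenced. Per the submitters' processing notes, reads were trimmed (Trimmomatic 0.36), aligned (STAR 2.5.2b, GRCm39) and counted in exons (featureCounts of Subread 1.5.2), and compared with DESeq2. The deposited signal values are read counts that the authors divided by a size factor per library within each of 3 tables. The tables also hold the authors' fold changes and p-values, which were not used. Libraries were placed in groups by the tables that hold their codes. The number of columns of other samples was 0. One GCN2 KO Cold title also names WT and was grouped by its genotype label.

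Each table carries its own normalization, and every test stayed inside 1 table: limma 3.58.1 (R 4.3.3) on log2(value + 1) with a mean-variance trend, 2 groups per fit, Benjamini-Hochberg over 16679, 16312 or 16560 genes. Every value gave whole reads within 0.1, and DESeq2 1.42.0 and edgeR 4.0.16 on these reads were alternatives. The scripts were tested on simulated data. Replicates are biological replicates per the labels.

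Levels across 9 libraries are TMM-scaled CPM from edgeR. Plain CPM was computed first. It was replaced after its values had been seen, because it moves the median of all genes while TMM scaling does not. TMM scaling is built to hold the typical gene steady, so that median does not show which scale is right. The choice is not neutral: 16 of 24 gene and comparison pairs had the same overlap between groups on both scales, and 23 of 24 the same sign.

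Genes were named by a rule: the 8 members, Eif2ak4, all genes of the synthesis, SREBP control and other target lists, at most 3 with the largest change of each other list, and the 10 most similar genes. Xist, Ddx3y and Ucp1 were added after their values were seen. Some genes of the lists are not reported here, and the lists are counted without them. The members and lists were chosen with earlier results of these data known. All WT RT libraries have another code prefix than the cold ones, and whatever this prefix marks cannot be told apart from cold. Reads on listed genes were 30457428 to 30768064 in WT RT, 28776085 to 28947157 in WT Cold and 27058799 to 28766121 in GCN2 KO Cold. Depth thus went with group, and its part was not tested. The spread between mice limits precision.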

Additional observations from a re-analysis of the deposited data

How the results depend on the processing

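Across the alternatives, the direction and side of the threshold of a single member held in 404 of 464 values, while 21 gained a call, 33 lost it and 6 changed sign. The fold threshold, Bonferroni adjustment and an adjusted p under 0.1 reuse the main fit, so no sign could change there. Under the fold threshold and Bonferroni adjustment, a member that had not passed could not gain a call. Part of the 404 was thus fixed in advance. In WT Cold vs WT RT, 3 members passed. The fold threshold left 0, Bonferroni adjustment 0, an adjusted p under 0.1 gave 5, and leaving out each library gave 1 to 5. In GCN2 KO Cold vs WT Cold, 0 passed in limma, 2 with DESeq2 and 3 without library C of both cold groups, an alternative added after seeing the data; leaving out each library gave 0 in every case. In GCN2 KO Cold vs WT RT, 4 passed, 1 with the fold threshold, 0 with Bonferroni, and 3 to 4 without each library. Signs changed for members near 0. Leaving out each library, Sqle in WT Cold vs WT RT ran from -0.014 to 0.27, Srebf2 in GCN2 KO Cold vs WT Cold from -0.039 to 0.14 and Hmgcs1 in GCN2 KO Cold vs WT RT from -0.16 to 0.054. Srebf2 in GCN2 KO Cold vs WT Cold was also at -0.056 under CPM scaling and at -0.056 with all 9 libraries in the fit, which is on plain CPM as well. The cause was not tested. CPM scaling moved the share of calls that were higher from 49.0% to 35.2%, from 43.9% to 13.5% and from 48.0% to 23.4% in the 3 comparisons, in this order. Which members do not overlap between groups also depends on the scale, as given beside each comparison. No paired analysis was possible because the columns carry library codes and no replicate number.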
